A study of Mus musculus with 5 samples.

Results

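Receptors of the scavenger and mannose receptor group were followed in bone marrow–derived macrophages (BMDMs) cocultured with breast cancer cells. They were the listed genes *Mrc1*, *Cd163*, *Folr2*, *Msr1*, *Marco*, *Cd36*, *Stab1*, *Lyve1*, and *Scarb1*, 9 of the 17058 genes in the deposited data. They were chosen by name, with earlier results of these data known. The study asked whether ADAM17, a protease that cuts signaling molecules off the cell surface, acts in cancer cells to shape the macrophages beside them. RNA-Seq was done on BMDMs of the Balb/c strain after 48 hours of coculture across a porous membrane. In 2 libraries the partner was 4T1 WT, a mouse mammary carcinoma line, and in 3 it was 4T1 with an ADAM17 knock-out, so that the macrophages that were sequenced still carried *Adam17* and only their partners had lost it. The macrophages came from female WT mice, according to the study's text. These libraries are called WT and *Adam17*-/- after the cancer cells. All 3 *Adam17*-/- libraries carry the knock-out designation 2.8, so the loss of *Adam17* and other features of that line cannot be told apart. No group without cancer cells was analysed here. The labels do not say whether repeats were separate cultures or animals, and p-values then measure only the spread between these libraries.

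Scavenger receptors are surface proteins with which macrophages take up modified lipoproteins, microbes, cell debris, and worn-out serum proteins. The mannose receptor, encoded by *Mrc1* (CD206), binds sugar chains and collagen for endocytosis, and CD163, encoded by *Cd163*, takes up complexes of hemoglobin and haptoglobin. Folate receptor β, encoded by *Folr2*, binds folate and marks many tissue-resident macrophages. *Msr1* encodes scavenger receptor A, *Marco* a collagen-like receptor for bacteria and particles, and *Stab1* (stabilin-1) a receptor for oxidized lipoprotein and matrix debris. *Cd36* and *Scarb1* encode the class B receptors, which bind fatty acids and lipoproteins, and *Lyve1* encodes a hyaluronan receptor of lymphatic vessels and some resident macrophages. *Mrc1* and *Cd163* are widely used markers of macrophages with a tumor-supporting or alternatively activated phenotype.

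The DNA around the annotated start sites of the 3 receptors that were lower by more than 2-fold (*Mrc1*, *Cd163*, and *Folr2*, described next) is shown here, since these genes moved in the same direction. Each is RefSeq sequence of mouse build GRCm38.p6, 5′ to 3′ on the gene's strand, from 250 bases before the start site to 50 after it. Capitals mark matches to the motifs that were searched. The windows are chr2:14229164-14229463 on the plus strand for *Mrc1*, chr6:124304401-124304700 on the plus strand for *Cd163*, and chr7:101845282-101845581 on the minus strand for *Folr2*.
Mrc1: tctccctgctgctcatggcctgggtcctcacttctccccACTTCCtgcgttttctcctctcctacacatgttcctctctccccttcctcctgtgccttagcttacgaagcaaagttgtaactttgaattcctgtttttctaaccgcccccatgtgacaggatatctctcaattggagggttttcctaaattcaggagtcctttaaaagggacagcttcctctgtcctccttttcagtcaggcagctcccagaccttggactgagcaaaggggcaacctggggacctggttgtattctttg
Cd163: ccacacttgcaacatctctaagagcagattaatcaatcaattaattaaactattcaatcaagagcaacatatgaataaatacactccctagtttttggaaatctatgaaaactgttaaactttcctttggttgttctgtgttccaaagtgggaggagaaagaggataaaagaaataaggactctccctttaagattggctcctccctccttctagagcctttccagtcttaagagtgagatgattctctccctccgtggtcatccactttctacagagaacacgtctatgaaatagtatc
Folr2: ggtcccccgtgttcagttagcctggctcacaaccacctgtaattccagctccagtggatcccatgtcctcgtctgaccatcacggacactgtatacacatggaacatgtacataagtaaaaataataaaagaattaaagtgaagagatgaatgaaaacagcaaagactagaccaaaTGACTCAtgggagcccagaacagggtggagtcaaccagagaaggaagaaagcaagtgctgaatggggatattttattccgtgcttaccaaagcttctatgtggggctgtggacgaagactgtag
RefSeq windows were found for 6 of the receptors (7 windows, 2 of them of *Folr2*). The motifs, searched on both strands, were GAGGAAGT (PU.1), GGAAGT (a shorter ETS core, added after the windows had been seen, which lies within the PU.1 letters), TGANTCA (AP-1), TTGCNNAA (C/EBP), TGCTGAC (a MAF half-site), the palindromic STAT6 consensus, GTGGGCG (EGR), and CACGTG (MITF and TFE). In the printed windows, the *Mrc1* window held the ETS core on the opposite strand, 211 to 206 bases before the start, a motif found in 23.8% of the 32851 promoter windows of the genome. The *Folr2* window held TGACTCA from 74 to 68 bases before the start, and AP-1 letters occurred in 7.81% of all windows. The *Cd163* window held none of these letters. Elsewhere, the other *Folr2* window held the ETS core at 2 places and the *Cd36* window held the ETS core and the STAT6 consensus, which occurred in 6.95% of all windows. These matches describe letters and not binding.

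The libraries held 14658694 to 20788373 expected counts (estimated numbers of reads, in which a read that fits several transcripts is divided among them). Levels within a gene are given as CPM, counts scaled to a common library total after TMM normalization, and levels between genes as FPKM, which also divides by transcript length. A count of 3 corresponded to 0.157 to 0.197 CPM and was taken as the floor. Differences were tested with edgeR's quasi-likelihood test over the 12576 genes that passed its filter on low counts, with Benjamini-Hochberg adjustment. A gene was called when its adjusted p was 0.05 or less and its log2 fold change was at least 1 in either direction. *Adam17* itself was at 199 ± 1.51 CPM (SD, n = 2) in WT libraries and 159 ± 6.32 (n = 3) in *Adam17*-/- libraries (log2 fold change -0.32, adjusted p = 0.0129), which checks no knock-out because the edited cells were not sequenced. Of the 10 macrophage markers examined, the lowest, *Aif1*, was at 25.7 CPM in WT libraries. Of 8 epithelial markers of mammary cancer cells, 6 of the 7 with any count averaged at or below 0.36 CPM in both groups, and *Cdh1* was at 11.2 and 12.4 CPM. The replicate libraries differed by more than counting noise in every pair. For 1 gene at a time, exact permutation of 2 against 3 libraries allows no p below 0.1, and the edgeR values draw on spread pooled over many genes.

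Most of these receptors were lower in macrophages cocultured with *Adam17*-/- cells. Of the 9, 7 passed the filter, and *Mrc1*, *Cd163*, and *Folr2* were called lower, 3 genes, where 0.867% of all tested genes were called lower. In edgeR, 0 were called higher, where 3.36% of all tested genes were, and DESeq2 also called 0 higher. In edgeR, 1 (*Cd36*) was higher at an adjusted p under 0.05 but with a log2 fold change short of the limit for a call. With no limit on the fold change, *Msr1*, *Stab1*, and *Scarb1* were also lower, which made 6 genes with an adjusted p under the threshold, beside 16.8% of tested genes, and *Cd36* alone was higher (14.9% of tested genes). In all 7, the libraries of the 2 groups did not overlap, with *Adam17*-/- below WT in 6 (29.7% of tested genes) and above in 1 (28.4%). The median log2 fold change of the 7 was -0.93, beside 0.01 over all tested genes. The receptors were listed with earlier results of these data known, and the paper names *Mrc1* and *Cd163* among the lower genes of this RNA-Seq. The shares over all genes are therefore no test of the group. The summed level of the 9 receptors was 8064 and 7168 CPM in WT libraries and 3817, 4070, and 4216 CPM in *Adam17*-/- libraries. In bulk RNA, fewer cells that carry a transcript and less of it per cell cannot be told apart.

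**Figure D1:**
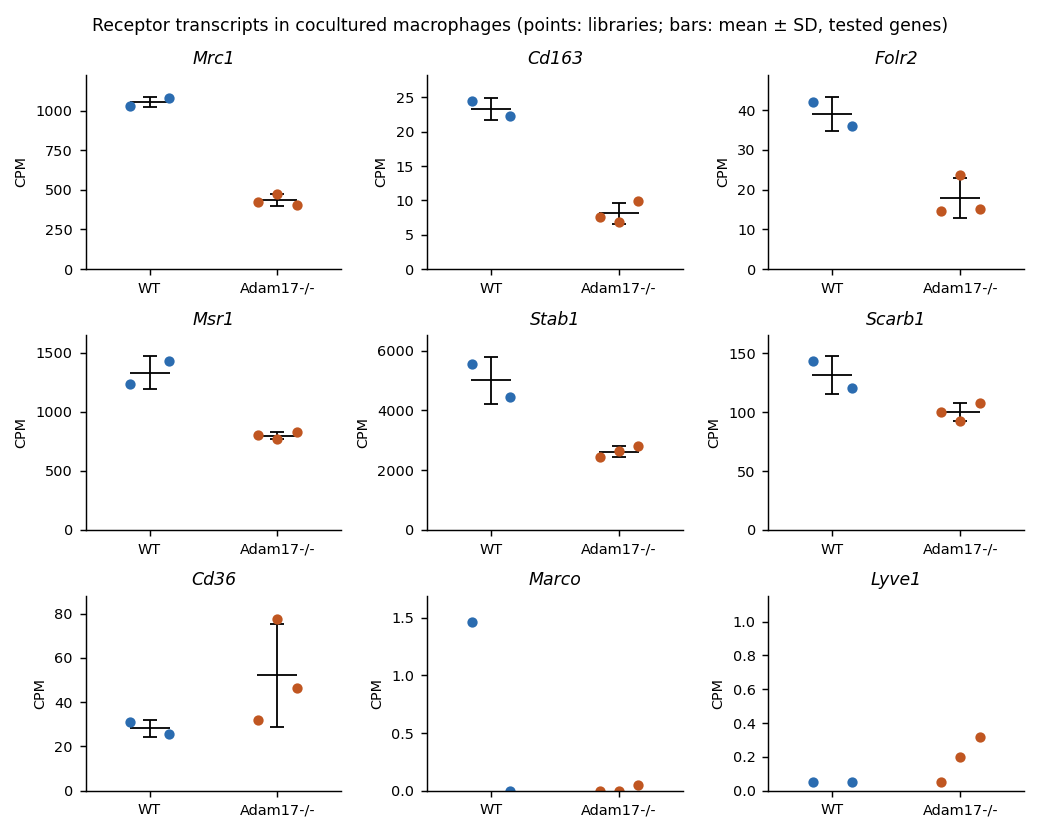
Levels of the 9 receptors in each library in CPM on linear axes from 0, with WT libraries in blue and *Adam17*-/- libraries in orange; black bars give mean ± SD for the 7 tested genes. *Mrc1*, *Cd163*, *Folr2*, *Msr1*, *Stab1*, and *Scarb1* lay lower in every *Adam17*-/- library than in either WT library, *Cd36* lay higher, and *Marco* and *Lyve1* lay below 1.5 CPM throughout.

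*Mrc1*, the mannose receptor gene (Entrez 17533, chr2:14229414-14332023), was the most abundant per length of the 3 called receptors. It was at 1031 and 1076 CPM in WT replicates 1 and 2, and at 423, 475, and 401 CPM in *Adam17*-/- replicates 1, 2, and 3. The level after coculture with *Adam17*-/- cells was 41.1% of that after WT coculture, and the gap between the groups was far wider than the spread within either. The log2 fold change was -1.28 ± 0.09 (SE; adjusted p = 0.000145). Per length, *Mrc1* fell from 188 ± 11.8 to 85.7 ± 7.32 FPKM (SD, n = 2 and 3), and from position 312 to position 739 in the order of all genes by mean FPKM. All of it was assigned to 1 transcript, and this transcript was the single one among those of the 9 genes to be called lower in a fit over 17618 transcripts (log2 fold change -1.26, adjusted p = 0.0247), where 0.585% of tested transcripts were called lower. Without any 1 *Adam17*-/- replicate, this transcript had a log2 fold change of -1.33 to -1.21 but an edgeR adjusted p of 0.0843 to 0.123, so that its call was lost. The transcript's call was also lost without WT replicate 1 (log2 fold change -1.31). In the fit over genes, *Mrc1* stayed called lower without any 1 *Adam17*-/- replicate (log2 fold change -1.34 to -1.21, edgeR adjusted p = 0.00128 to 0.0022).

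*Cd163*, the hemoglobin scavenger receptor gene (Entrez 93671, chr6:124304636-124330529), showed the largest fold difference of the 7. Its level was 24.5 and 22.2 CPM in WT replicates 1 and 2, and 7.61, 6.84, and 9.85 CPM in *Adam17*-/- replicates 1, 2, and 3. The lowest WT library was above the highest *Adam17*-/- library, and the mean fell to 34.7% of WT. The log2 fold change was -1.52 ± 0.15 (SE; adjusted p = 0.000372), which placed *Cd163* at position 32 from the lowest fold change among all tested genes, with *Mrc1* at 54 and *Folr2* at 81. The gene was far less abundant than *Mrc1*, at 5.04 ± 0.18 FPKM in WT libraries and 1.92 ± 0.36 in *Adam17*-/- libraries (SD, n = 2 and 3), and rested on 104 to 468 counts in a library.

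*Folr2*, which encodes folate receptor β (Entrez 14276, chr7:101839988-101857190), was at 41.9 and 35.9 CPM in the WT libraries. Its levels were 14.7, 23.7, and 15.1 CPM in *Adam17*-/- replicates 1, 2, and 3. *Adam17*-/- replicate 2 was the highest of its group but stayed below both WT libraries. The mean level was 45.9% of WT, with a log2 fold change of -1.13 ± 0.19 (SE; adjusted p = 0.00237). This estimate lay close to the limit of 1: it was -0.99 without *Adam17*-/- replicate 1 (adjusted p = 0.0158), with library size as the only scaling, also -0.99 (adjusted p = 0.00501), and with limma on log2(FPKM + 1) -0.97 (adjusted p = 0.00865), so that *Folr2* was not called in these 3 settings.

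*Stab1*, the stabilin-1 gene (Entrez 192187, chr14:31139017-31168651), carried more counts than the other 8 receptors together in every library. It was at 5554 and 4457 CPM in WT replicates 1 and 2, and at 2438, 2626, and 2807 CPM in *Adam17*-/- replicates 1, 2, and 3. The WT libraries were 1.25-fold apart, and both stood above all *Adam17*-/- libraries. The log2 fold change was -0.93 ± 0.11 (SE; adjusted p = 0.000739), 52.4% of the WT level and just short of the limit for a call. Without WT replicate 2, the lower of the WT libraries, the log2 fold change of *Stab1* was -1.08, and without WT replicate 1 it was -0.77. Each of these fits has a single WT library, which is assumed to vary like the *Adam17*-/- libraries. Those differed less from each other (chi-square per degree of freedom 5.22 to 6.32) than the WT libraries did (25.7). The sums of *Stab1* were not whole numbers in 3 libraries, as happens where reads are divided with other genes.

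*Msr1*, which encodes scavenger receptor A (Entrez 20288, chr8:39543232-39642750), was at 1238 and 1431 CPM in WT replicates 1 and 2. In *Adam17*-/- replicates 1, 2, and 3 it was at 800, 769, and 828 CPM. The *Adam17*-/- libraries lay within 1.08-fold of each other and below both WT libraries. The log2 fold change was -0.74 ± 0.09 (SE; adjusted p = 0.000763), 59.9% of the WT level.

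*Scarb1*, the gene of the high-density lipoprotein receptor SR-BI (Entrez 20778, chr5:125277087-125341094), had the smallest difference. It was at 143 and 120 CPM in WT libraries and at 99.8, 92.1, and 107 CPM in *Adam17*-/- replicates 1, 2, and 3, so that the groups were separate by a narrow margin. The log2 fold change was -0.40 ± 0.10 (SE; adjusted p = 0.0166), 75.8% of the WT level. It no longer passed the test without *Adam17*-/- replicate 1 (adjusted p = 0.0747) or replicate 2 (0.0803), with library size only (0.0746), or with limma on log2(FPKM + 0.1) or log2(FPKM + 1) (0.0832 and 0.0842).

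*Cd36*, the fatty acid translocase gene (Entrez 12491, chr5:17781690-17888959), went the other way. It was at 31.0 and 25.5 CPM in WT replicates 1 and 2, and at 32.2, 77.6, and 46.5 CPM in *Adam17*-/- replicates 1, 2, and 3. *Adam17*-/- replicate 1 was barely above WT replicate 1, and replicate 2 was 2.41-fold above replicate 1. The mean was 1.84-fold higher after *Adam17*-/- coculture, with a log2 fold change of 0.88 ± 0.30 (SE) and an adjusted p of 0.0477. It did not pass the test with DESeq2 (adjusted p = 0.177), with limma on log2(FPKM + 1) (0.0548), or without WT replicate 2 (0.0970), *Adam17*-/- replicate 2 (log2 fold change 0.50, adjusted p = 0.0894), or *Adam17*-/- replicate 3 (0.0752). *Adam17*-/- replicate 2 was also the highest library for *Mpo* and *Elane*, granule genes of neutrophil precursors, at 63.2 and 37.0 CPM, and for *Lpl*, which encodes lipoprotein lipase, at 125 CPM (chosen after their values were seen). Over the whole list of 10 neutrophil markers, 6 were highest in that library, but *S100a8*, *S100a9*, and *Mmp8* were highest in replicate 1 and *Camp* in replicate 3, and the summed level was higher in replicate 1 (2401 CPM) than in replicate 2 (2329 CPM). Their part in the *Cd36* difference was not tested.

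*Marco* and *Lyve1* were not tested. *Marco* (Entrez 17167, chr1:120474538-120505024) had 28 and 0 counts in WT replicates 1 and 2, and 0, 0, and 1 counts in *Adam17*-/- replicates 1, 2, and 3. All but 1 of its counts came from 1 library, and 5 of the 17058 genes had at least 28 counts in WT replicate 1 and 0 in WT replicate 2 (*Marco*, *Moap1*, *Zfp973*, *Gm44502*, and *Oaz1-ps*, the others named after their values were seen). With no filter on low counts, *Marco* was called lower (adjusted p = 0.00758), a call that rests on that library. *Lyve1* (Entrez 114332, chr7:110850607-110862953) had 1 and 1 counts in WT libraries and 1, 3, and 6 counts in *Adam17*-/- libraries, at or near the floor, and no difference was detectable at this depth (adjusted p = 0.335 with no filter).

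**Figure D2:**
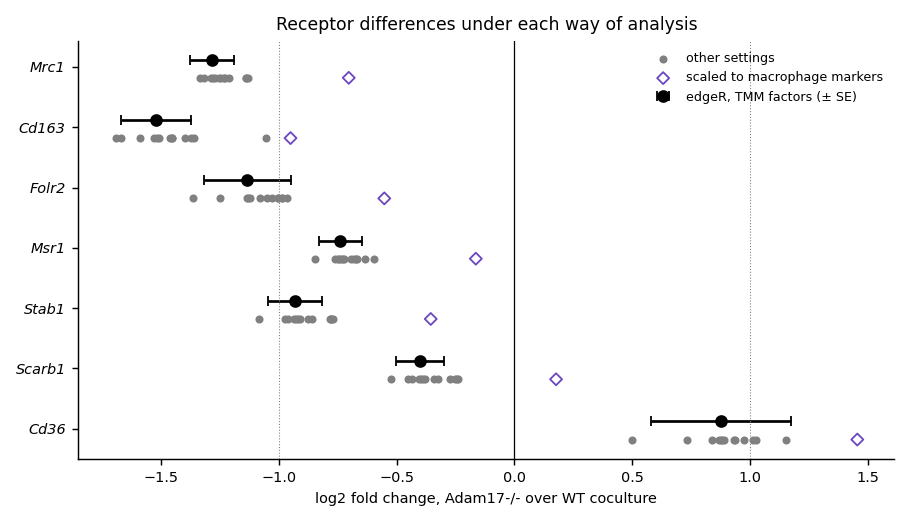
Log2 fold change of each tested receptor, *Adam17*-/- over WT coculture. Black points with bars give the estimate ± SE, gray points the other normalizations, filters, tools, and left-out libraries, and open diamonds the scaling to macrophage markers; dotted lines mark a log2 fold change of 1 in either direction. *Mrc1*, *Cd163*, *Folr2*, *Msr1*, and *Stab1* lay below 0 in every setting, *Scarb1* in every setting but the scaling to macrophage markers (0.18), and *Cd36* above 0 in every setting.

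Other general macrophage genes were lower in the same libraries. Of the 10 macrophage markers, 7 were lower with an adjusted p under the threshold and none was higher, with a median log2 fold change of -0.54, whereas over all tested genes 16.8% were lower and 14.9% higher and the median was 0.01. Their summed level was 28928 and 28157 CPM in WT libraries and 18315 to 20291 CPM in *Adam17*-/- libraries. *Adgre1*, which encodes F4/80, fell by 0.66 on the log2 scale (adjusted p = 0.00105), *Lyz2* by 0.65 (0.00148), and *Itgam* by 0.64 (0.00172), whereas *Csf1r*, the receptor of the macrophage growth factor, stood at -0.29 (adjusted p = 0.0520) and *Mertk* at -0.06 (0.572). Counts were therefore also scaled to the summed macrophage markers, a setting chosen after seeing the data, which moved the median of all genes to 0.58. The sum is weighted by level, so *Lyz2*, *Itgam*, and *Csf1r* weighed most (12681, 7128, and 5356 CPM on average in WT libraries). On this scale *Mrc1* was at -0.70 (adjusted p = 3.43e-05), *Cd163* at -0.95 (2.05e-05), *Folr2* at -0.55 (0.00674), and *Stab1* at -0.36 (0.00575). These 4 thus remained lower relative to this sum, and none reached the limit for a call. *Msr1* stood at -0.16 (adjusted p = 0.175) and *Scarb1* turned to 0.18 (0.173), while *Cd36* rose by 1.46 (2.81e-05) and was called. Over all genes, 21 were called lower and 2293 higher on this scale, beside 109 and 422 with TMM factors.

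Markers of other cells moved as well, beside 16.8% lower and 14.9% higher over all tested genes. Of 10 neutrophil markers 7 were higher and none lower, with *Camp* passing the filter only through the *Adam17*-/- libraries (summed level 1305 and 1350 CPM in WT, 2128 to 2401 in *Adam17*-/-). Of 6 monocyte markers 5 were higher and none lower (286 and 293 against 362 to 456 CPM). All 7 megakaryocyte and platelet markers were tested, and 6 were higher (77.5 and 84.3 against 116 to 204 CPM). Dendritic cell markers gave 2 higher of 6 tested (at most 20.3 CPM in a WT library against 24.8 to 32.0), with *Siglech* below the floor. Among 7 endothelial markers tested, which bear on *Stab1* and *Lyve1*, 3 were lower and 1 higher (277 and 302 against 219 to 273 CPM), with *Cdh5* called lower (adjusted p = 0.0484) on 26 and 16 counts in WT and 9, 8, and 10 in *Adam17*-/- libraries, although it passed the filter only through the WT libraries. *Kdr* was at 70.5 and 42.3 CPM in WT and *Adam17*-/- libraries (lower, adjusted p = 0.00265), *Vwf* at 75.9 and 103 (higher, 0.0456), and *Pecam1* at 23.6 and 28.4 (0.0819), whereas the 3 not tested, *Tek*, *Emcn*, and *Prox1*, averaged at or below 0.15 CPM. Fibroblast and adipocyte markers gave 1 higher of 4 tested (29.4 and 33.1 against 24.2 to 107 CPM), and *Adipoq* and *Plin1* had no count. Of 8 proliferation genes, 2 were lower and 3 higher. Transcripts kept in the nucleus, such as *Malat1*, were higher in all 3 cases tested (summed 6002 and 6098 against 9908 to 11310 CPM). The part of these cells, and of RNA quality, in the receptor differences was not tested.

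**Figure D3:**
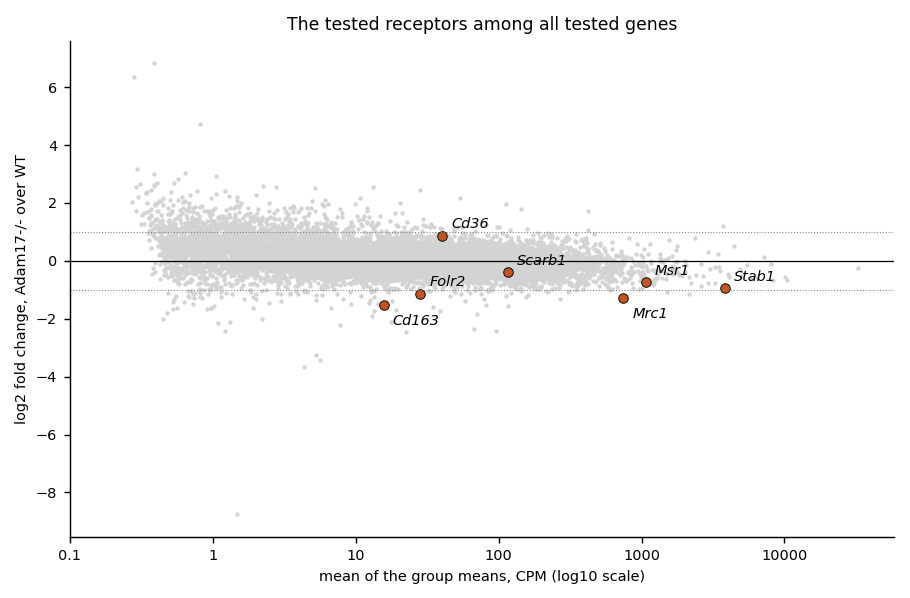
Log2 fold change (*Adam17*-/- over WT) of all 12576 tested genes in gray against their mean level in CPM on a log10 axis, with the 7 tested receptors in orange; dotted lines mark a log2 fold change of 1 in either direction. *Mrc1*, *Cd163*, and *Folr2* lay below the lower line, *Msr1*, *Stab1*, and *Scarb1* between it and 0, and *Cd36* just under the upper line.

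The order of the receptors by level was compared per length. In WT libraries, *Stab1* and *Msr1* led at 591 ± 72.8 and 581 ± 67.7 FPKM (SD, n = 2), with overlapping libraries, and ranked 72 and 74 among all genes. *Mrc1* (188 FPKM), *Scarb1* (51.0), *Folr2* (35.6), *Cd36* (7.63), and *Cd163* (5.04) followed, each with both libraries below those of the receptor above it, and *Marco* (0.35) and *Lyve1* (0.02) came last with overlapping libraries. In *Adam17*-/- libraries, *Msr1* (364 ± 10.5 FPKM, SD, n = 3) and *Stab1* (344 ± 22.2) again overlapped. *Mrc1* (85.7) and *Scarb1* (43.0) kept their places, *Folr2* (18.1) and *Cd36* (15.6) overlapped, and *Cd163* (1.92) was lowest of the 7 tested receptors. *Cd36* was thus nearer to *Folr2* after *Adam17*-/- coculture, although its *Adam17*-/- libraries ranged from 9.71 to 23.3 FPKM.

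The genes *Msr1*, *Scarb1*, *Folr2*, *Cd36*, and *Cd163* each had more than 1 transcript, and *Msr1* divided its reads between a pair that encode different receptors. NM_001113326 encodes type I scavenger receptor A, with a coding sequence of 458 codons that ends in the cysteine-rich domain, and NM_031195 encodes the shorter type II form of 354 codons, which lacks that domain. The first 1054 coding bases are shared. The coding strands from base 1010 onward, read from the GENCODE transcripts of GRCm38 (minus strand of chromosome 8), are shown to place where they part, with capitals for the part not shared. The type I stretch goes on after the last base printed, and the type II stretch ends before its stop codon.
Type I: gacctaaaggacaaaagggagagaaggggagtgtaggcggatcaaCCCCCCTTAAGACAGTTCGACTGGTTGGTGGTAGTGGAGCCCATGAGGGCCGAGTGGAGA
Type II: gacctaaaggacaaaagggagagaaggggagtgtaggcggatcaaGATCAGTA
Type I took 43.6% and 40.9% of the *Msr1* counts in WT replicates 1 and 2, and 35.1%, 37.9%, and 36.4% in *Adam17*-/- replicates 1, 2, and 3. The groups did not overlap, and the type II share was 5.84 percentage points higher after *Adam17*-/- coculture (exact permutation p = 0.1, two-sided, the smallest this design allows). Per length, where the short type I transcript weighs more, type I held 65.2% of the *Msr1* FPKM in WT and 59.4% in *Adam17*-/- libraries. In the fit over all transcripts both fell, type I by 0.93 on the log2 scale (adjusted p = 0.0247) and type II by 0.58 (adjusted p = 0.0499). With those of *Mrc1* and *Stab1* (-0.91, adjusted p = 0.0271), 4 of the receptors' transcripts were lower in this fit, beside 4.19% of all tested transcripts. None of the receptors' transcripts passed without WT replicate 1 (lowest adjusted p = 0.0627) or without *Adam17*-/- replicate 1, 2, or 3 (0.123, 0.103, and 0.0843), and type II also did not pass with library size only (0.0878), with limma on log2(FPKM + 0.1) (0.0773), or without WT replicate 2 (0.0506). The test of each transcript against the rest of its gene, edgeR's diffSpliceDGE, added after seeing the data, did not pass for type I (edgeR adjusted p = 1.00) and passed for 1.03% of 8284 transcripts.

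*Scarb1* had 3 transcripts, of which NM_016741 held 73.8% to 78.1% of the counts in all libraries. NM_001205083 held 3.81% and 4.56% in WT replicates 1 and 2, and 7.38%, 9.16%, and 9.59% in *Adam17*-/- replicates 1, 2, and 3. The groups did not overlap, with a difference of 4.52 percentage points (exact permutation p = 0.1, two-sided), and diffSpliceDGE gave an adjusted p of 0.860. The division of the other genes varied within groups. The *Cd163* transcript NM_001170395 took 75.6%, 0%, and 26.7% of the gene's counts in *Adam17*-/- replicates 1, 2, and 3, and 15.7% and 6.23% in the WT libraries. The *Folr2* transcript NM_008035 held 65.0% to 89.3% and the *Cd36* transcript NM_007643 68.1% to 86.8%, with overlapping groups for both. The summed counts, and the CPM from them, do not depend on this division. Summed FPKM does, because each transcript is divided by its own length (1467 and 3643 bases for types I and II of *Msr1*). Levels between genes therefore rest partly on the division.

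**Figure D4:**
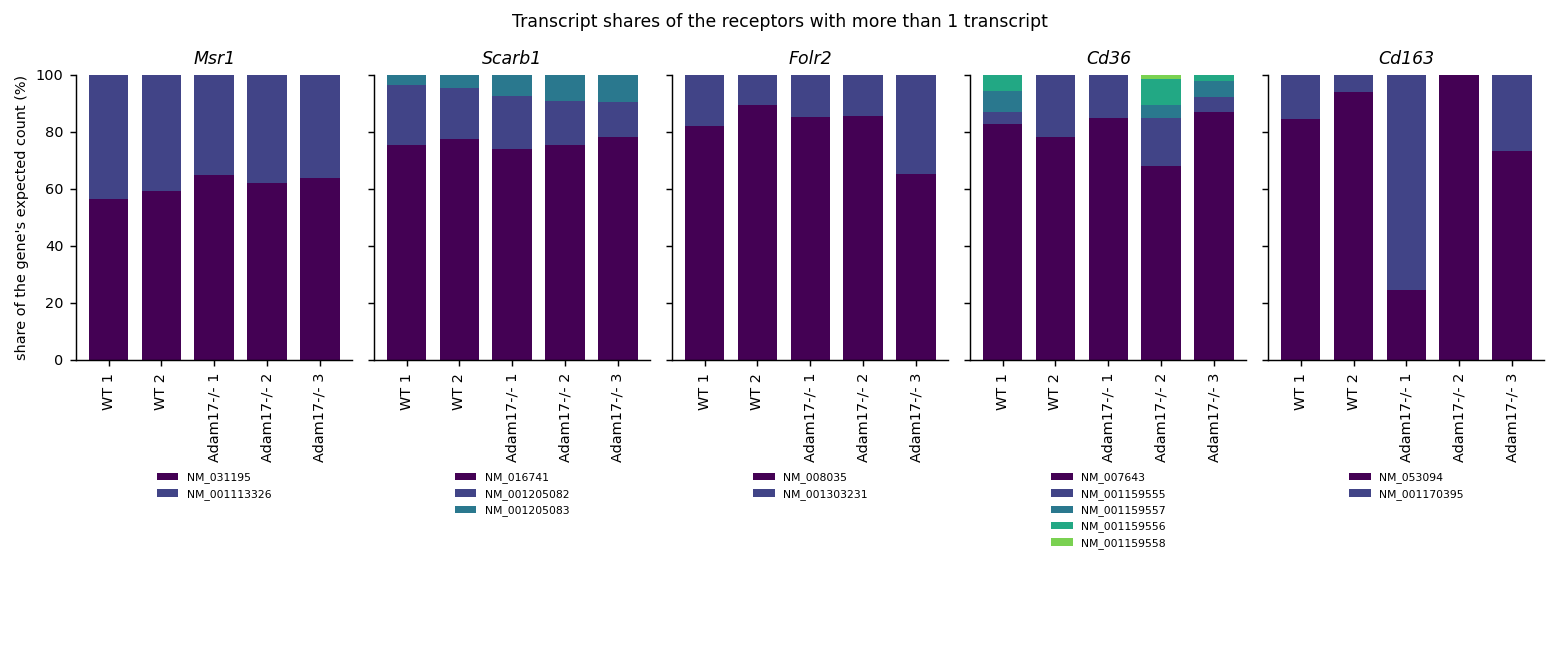
Share of each gene's expected count (percent, stacked to 100) assigned to its transcripts in the 5 libraries, for the 5 receptors with more than 1 transcript. In *Msr1* the upper segment, type I, was smaller in the 3 *Adam17*-/- libraries (35.1% to 37.9%) than in the WT libraries (40.9% and 43.6%), and in *Cd163* the division varied from library to library.

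Relatives of the receptors moved in both directions, as did all tested genes (16.8% lower and 14.9% higher). Of 22 other genes of the scavenger and mannose receptor families, 14 were tested, 5 were lower, 4 were higher, and 5 did not pass, with a median log2 fold change of 0.13 beside 0.01 over all tested genes. *Cd68*, which encodes a lysosomal glycoprotein and is also among the macrophage markers, fell by 0.93 (adjusted p = 0.00116), *Lgals3bp* by 0.73 (0.00535), *Scarf1* by 0.60 (0.00824), *Lrp1*, the large endocytic receptor for lipoproteins, by 0.54 (0.00538), and *Colec12* by 0.41 (0.00751). *Olr1*, which encodes the oxidized lipoprotein receptor LOX-1, was called higher, from 0.98 to 3.12 CPM (log2 fold change 1.64, adjusted p = 0.0102), as was *Megf10* (adjusted p = 0.0240), which had 4 and 1 counts in WT libraries and 7, 25, and 19 in *Adam17*-/- libraries. *Megf10* passed the filter on low counts only through the group where it was high, so its call is no support for a difference, and it was not tested with at least 10 counts in every sample. *Ly75*, a mannose receptor family member of dendritic cells, rose by 0.67 (adjusted p = 0.0102). *Scarb2*, the lysosomal class B relative of *Cd36* and *Scarb1*, stood at 0.13 (adjusted p = 0.266), and the liver and vessel receptor gene *Stab2*, at 0.87 and 0.94 CPM, at 0.08 (0.907).

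Genes that act on the receptors' cargo were examined by list, beside 16.8% lower and 14.9% higher over all tested genes. In folate uptake, 2 of 5 tested genes were lower and none higher, *Fpgs* by 0.56 (adjusted p = 0.0215), which encodes the enzyme that retains folate in the cell, and *Slc46a1*, the proton-coupled folate transporter gene, by 0.61 (0.0363). In hemoglobin and heme handling, which lies downstream of CD163, 4 of 9 were lower and 2 higher. *Hmox1* (heme oxygenase 1) fell by 0.43 (adjusted p = 0.00558), *Hmox2* by 0.57 (0.00134), and the biliverdin reductase genes *Blvra* and *Blvrb* by 0.48 (0.00384) and 0.49 (0.00806). *Slc40a1*, the iron exporter gene, rose by 0.58 (adjusted p = 0.0199), and *Hpx*, at 0.61 and 1.42 CPM, was called higher (adjusted p = 0.0353), but passed the filter only through the *Adam17*-/- libraries. In lipoprotein lipid handling, 5 of 16 were lower and 2 higher. *Nceh1*, which encodes a cholesteryl ester hydrolase, fell by 0.40 (adjusted p = 0.00915), and *Abca1*, the cholesterol exporter gene, rose by 0.72 (0.00290).

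Transcription factors tied to these receptors in macrophages gave 5 lower and 2 higher of 19 tested. Over all tested genes, 16.8% were lower and 14.9% higher. *Klf4* fell by 0.89 (adjusted p = 0.000544), *Maf* by 0.58 (0.00351), and *Spi1*, which encodes PU.1, by 0.53 (0.00626). *Nr4a1* was called lower (log2 fold change -1.04, adjusted p = 0.00833) and *Irf4* higher (1.17, 0.00172). *Stat6* stood at -0.13 (adjusted p = 0.240), *Nr3c1*, the glucocorticoid receptor gene, at 0.00 (0.979), and *Pparg*, a regulator of *Cd36*, at 1.17 (0.0565). The list of sheddases, which cut receptors such as CD163 from the surface, also held their partners and an inhibitor. Of its 7 genes, 4 were lower, among them *Mmp9* by 0.65 (adjusted p = 0.00128) and *Mmp14* by 0.49 (0.00464), and 1, the inhibitor *Timp3*, was higher by 0.72 (0.0423).

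Genes that mark resident macrophages together with *Folr2*, *Lyve1*, *Mrc1*, and *Cd163* were mostly lower, whereas 16.8% of all tested genes were lower and 14.9% higher. Of 20 listed, 17 were tested, 12 were lower, 1 was higher, and 4 did not pass, with a median log2 fold change of -0.52. *Cbr2* (log2 fold change -1.38, adjusted p = 0.00377), *Fcna* (-1.22, 0.000458), and *Pf4* (-1.07, 0.000174) were called lower, 3 genes, in place of which 2 were called with library size only. *Gas6*, which bridges dying cells to macrophage receptors, fell by 0.99 (adjusted p = 0.00135), and the complement genes *C1qa*, *C1qb*, and *C1qc* fell by 0.52, 0.50, and 0.73 (0.0159, 0.0161, and 0.00496). *Igf1* rose by 0.34 (adjusted p = 0.0339), and *Timd4* was not tested.

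**Figure D5:**
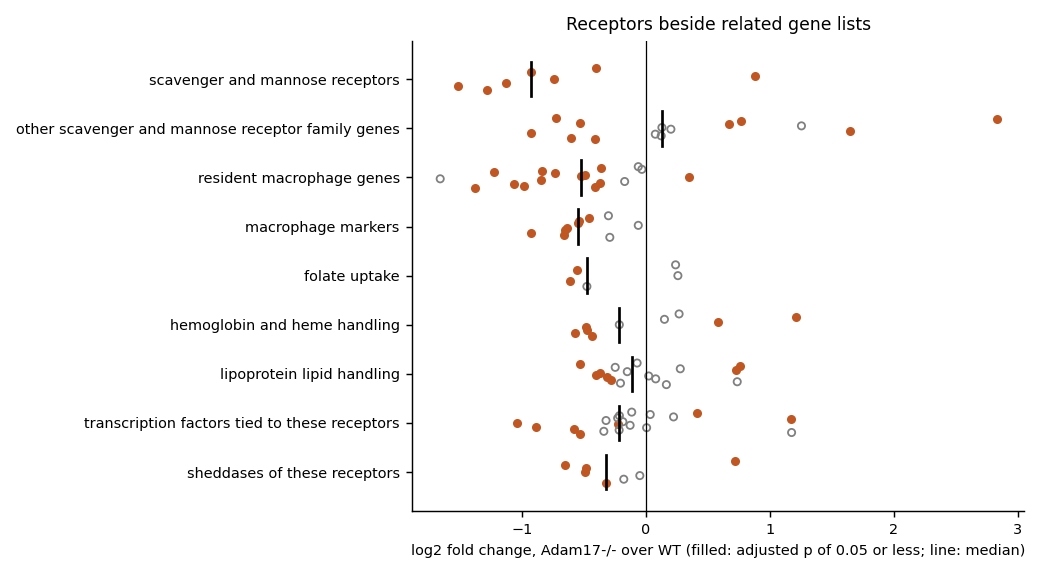
Log2 fold change (*Adam17*-/- over WT) of each tested gene in the receptor group and in 8 related lists, with filled points for an adjusted p of 0.05 or less, open points for the others, and a line at each list's median. The receptors' median (-0.93) lay to the left of those of resident macrophage genes (-0.52) and macrophage markers (-0.54), and the other family genes lay on both sides of 0 with a median of 0.13.

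The genes most like each called receptor over the 5 libraries were sought among 11753 tested genes with a mean of at least 1 CPM, by the root mean square difference in centered log2 CPM. For *Mrc1* they were *Fcna* (0.11), a ficolin gene also on the list of resident macrophage genes, *Marcksl1* (0.12), and *Nfatc2* (0.12). For *Cd163* they were *Dmwd* (0.06), *Il12rb1* (0.09), and *Unc5b* (0.10), and for *Folr2* they were *Dusp4* (0.08), *Cd300ld5* (0.12), and *Arhgef10l* (0.12). *Folr2* and these 3 genes are set side by side only for their levels, and the measure also counts differences within a group.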

How the data were processed

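RNA-Seq libraries of 5 BMDM samples, 2 WT and 3 *Adam17*-/- by their labels, were analyzed. The authors enriched poly-A RNA, sequenced on a BGISEQ-500, and aligned to GRCm38. The paper names HISAT and Bowtie2, and the submitters' processing notes name Bowtie, Bowtie2, RSEM, DESeq2, and the mm10 build, without versions. The authors deposited, per transcript, an expected count, which is not normalized, an FPKM value, normalized to transcript length and library size, and the transcript's length. A transcript absent from a library's list, which stops at an FPKM of 0.01, counted as 0. How reads on overlapping genes or strands were assigned is not given in the sources used here. Gene sums were not whole numbers (tolerance 0.02) for 13.2% to 14.0% of genes in a library. The floor covers counting error only.

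Expected counts were added up by gene and rounded. The quasi-likelihood test of edgeR 4.0.16 (R 4.3.3) followed, with TMM factors, filterByExpr, and no covariates, and transcripts were treated likewise. Of 17058 Entrez identifiers, 17015 matched RefSeq. SD values are between libraries. Transcript shares were compared by an exact permutation test and, as an addition, diffSpliceDGE. On simulated data, edgeR called 200 of 200 changed genes and 8 unchanged ones, and for transcripts 163 of 200 and 10 unchanged ones. diffSpliceDGE called 26 of 77 changed transcripts among 7620 and 15 unchanged ones. The members, gene lists, and motifs were chosen with earlier results of these data known. Some list genes are not reported here and were taken out of their lists after the analysis. Named genes were all 9 members, list genes that were called or had the lowest adjusted p, *Adam17*, and the 3 genes most like each called member in log2 CPM (prior count 2). Other list genes were named as background to a list after their values were seen. Alternatives were another tool (DESeq2 1.42.0), limma 3.58.1 on log2(FPKM + 1) and log2(FPKM + 0.1), scaling by library size only or by upper quartile factors, at least 10 counts in every sample or no filter, leaving out each replicate, a block for the replicate number, and FPKM shares. Tables and plots were made with pandas 2.3.3 and matplotlib 3.10.9 in Python 3.11.15.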

Additional observations from a re-analysis of the deposited data

How the results depend on the processing

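Over 14 other settings, *Mrc1*, *Cd163*, *Folr2*, and *Stab1* kept their direction and passed the test, with log2 fold changes of -1.34 to -0.70, -1.69 to -0.95, -1.36 to -0.55, and -1.08 to -0.36. *Msr1* did so in 13 settings, *Cd36* in 9, and *Scarb1* in 8. Scaled to the summed macrophage markers, a setting chosen after seeing the data that moved the median of all genes to 0.58, 0 receptors were called lower and 1 higher, and *Scarb1* went from -0.40 to 0.18 (adjusted p = 0.173), still below that median. This scaling shifts all genes by about the same amount. With each *Adam17*-/- replicate left out, 2 to 3 receptors were called lower, 0 to 1 higher (*Cd36* without *Adam17*-/- replicate 1), and 0 of their transcripts lower. Over all genes, 77 to 112 were then called lower and 323 to 382 higher. Without WT replicate 1 or 2, *Stab1* was at -0.77 and -1.08 and *Cd36* at 1.01 and 0.73. A fit that leaves out a WT replicate assumes that the lone WT library varies like the others. Of the 4 receptor transcripts that passed the test, 0 did so without WT replicate 1, without any 1 *Adam17*-/- replicate, or with the replicate block (lowest adjusted p = 0.283). With library size only, 2 were called lower and 1 higher (*Cd36*), the median of all genes moved from 0.01 to 0.16, and 91.8% of all calls were higher in place of 79.5%. The calls over all genes were then 57 lower and 639 higher, beside 109 and 422. With limma on log2(FPKM + 1) they were 30 lower and 120 higher, on log2(FPKM + 0.1) 51 and 499 (90.7% higher), and scaled to macrophage markers 21 and 2293.

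Transcripts of the receptors called lower numbered 2 with at least 10 counts in every sample and 0 with the replicate block. With at least 10 counts, 1 other scavenger receptor family gene was called higher in place of 2. With library size only, 0 transcription factors were called lower in place of 1, and 2 transcription factors higher in place of 1. Whether the replicate numbers pair these samples is not known. Deviations from the group means correlated at -0.12 for the first and -0.05 for the second of the same-numbered pairs. With 2 WT libraries the WT deviations mirror each other, so both values rest on the same WT difference and cannot decide this. A fit with the replicate number as a block called 3 receptors lower and 0 higher, with 7 passing the test, and left *Adam17*-/- replicate 3 without a partner. *Marco* and *Lyve1* were at or below the floor of 3 counts in 4 of 5 libraries.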
